A study of Mus musculus with 4514 samples.

Results

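The cells at the ends of the liver lobule at postnatal day 24 (P24) comprised 59 single hepatocytes at the pericentral end and 59 at the periportal end, or 66.3% of all cells with that age label. The other 60 cells lay between them and formed a middle group. Each cell was placed by a score s, the log2 ratio of 2 sums of levels in CPM, counts scaled to a cell total of 1000000. The upper sum held Glul, Oat, Slc1a2, Cyp2e1 and Cyp1a2, the lower sum held Cyp2f2, Hal, Sds, Ctsc and Hsd17b6, and 1 CPM was added to each. The cells were thus selected on measured values of these 10 genes, and the ends come from the data and not from a label. All folds between the ends are therefore descriptions without a test.

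The series follows mouse hepatocytes through maturation and holds 4514 samples in 38 groups, nearly all of them single cells or nuclei. The cells used here carry no label of ploidy, treatment or zone and were processed with mSTRT-seq, a plate method that barcodes each cell before pooling. Hepatocytes at P18, P24, P30 and P60 came from mice of the genotype Alb-Cre; Rosa-tdTomato, in which a recombinase driven by the albumin promoter switches on a red reporter. The 6 bulk RNA-seq libraries, from the same genotype at P60, were labelled CV (CD73+), PV (CD324+) and ML (CD324-;CD73-), with 2 libraries each. Every group carried both transgenes. The labels give no animal, litter or sex, so the P24 cells count as 1 sample, and p-values for the bulk libraries measure only the spread between them, which may be technical.

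Blood enters the lobule beside the portal vein and drains into the central vein, so oxygen, hormones and nutrients form gradients along the row of hepatocytes. Periportal hepatocytes are known for urea formation, gluconeogenesis and the breakdown of amino acids. Pericentral hepatocytes are known for glutamine synthesis, drug oxidation and bile acid synthesis, and Wnt ligands released by the endothelium of the central vein maintain much of their program through beta-catenin.

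The label of the ends was checked against their markers, as a description, because the score used them. Glul, the glutamine synthetase, reached a median of 56.9 CPM per cell at the pericentral end (lowest 0, highest 3570) and 18.4 CPM at the periportal end (lowest 0, highest 115.2). The cytochrome P450 Cyp2e1 had a median of 6269 CPM per cell at the pericentral end, with cells between 3826 and 11037, against 503 CPM at the periportal end, with cells between 98.8 and 3668. Only for Cyp2e1 among these 2 markers did the ends not overlap. Cyp2f2, a P450 of periportal cells, had a median of 5.99 CPM at the pericentral end (0 to 31.8) and 695 CPM at the periportal end (31.1 to 1827). Hal, the histidine ammonia-lyase that opens histidine breakdown, had medians of 14.7 CPM (0 to 126.5) and 371 CPM (103.5 to 745). Cells of the ends met within a narrow range for both.

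The score ran from -2.93 to 13.16 with a median of 4.19. Its medians were 7.86 at the pericentral end, 4.19 in the middle and -0.37 at the periportal end. The highest periportal cell scored 2.49 and the next cell above it 2.56, while the lowest pericentral cell scored 6.05 and the next below it 5.88. The ends are therefore cut from a continuous range. Cells scoring 13.16, 12.70 and 12.60 had 0 CPM of all 5 genes of the lower sum. Cyp2e1 and Cyp1a2 made up most of the upper sum, with 6300 and 2050 CPM in the pericentral pool. A high score therefore did not need Glul. Only 6 cells held more than 1000 CPM of both Glul (1340 to 3570) and Slc1a2, a glutamate transporter, and all 6 lay at the pericentral end. The highest Glul level in any other cell was 330 CPM. Without those 6 cells the pericentral pool held 80.5 CPM of Glul in place of 274.8, and 25.0 CPM of Slc1a2 in place of 174.4.

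The P24 cells held 38950 to 748754 counts each (median 243986) and a median of 7859 detected genes. Median counts were 253270 at the pericentral end, 227428 in the middle and 245212 at the periportal end, and across cells the score had a Spearman correlation of 0.056 with counts and of 0.17 with genes detected. No 2 cells had identical counts. The label numbers fell into 3 runs that stood apart, of 44, 77 and 57 cells in label order. Spike-in RNA made up at most 0.415% of counts in run 3 and at least 0.591% in all other cells. Median levels of Cyp2c69 were 378, 5.37 and 209.1 CPM in runs 1, 2 and 3, those of the iron hormone Hamp 182.1, 23.1 and 1792 CPM. The labels do not say what separates the runs. The pericentral end drew 12, 29 and 18 cells from runs 1, 2 and 3, and the periportal end 22, 20 and 17, so each fold below was also computed within every run.

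Genes of hepatocyte identity were measured at both ends. None of 8 differed 2-fold, where 4.68% of all measured genes did, and albumin (Alb) stood at 16105 CPM in the pericentral pool and 18117 CPM in the periportal pool. Defining markers of other liver cells were low: the 10 endothelial markers summed to 19.53 and 21.4 CPM at the pericentral and periportal ends, 11 macrophage markers to 44.1 and 31.4 CPM, 10 stellate cell markers to 20.1 and 14.4 CPM, and 9 lymphocyte and neutrophil markers to 0.653 and 0.131 CPM, with 4 of these 9 at 0 in every P24 cell. Of the 8 cholangiocyte markers, which summed to 1.54 and 8.23 CPM, 6 had no count in any P24 cell. Erythroid markers were the exception and are described with the single cells below.

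Counts of each end were summed and scaled to CPM, leaving 6541 genes with at least 10 CPM over all P24 cells and a count in at least 10% of cells, the 10 score genes left out. Of these, 3.30% were at least 2-fold higher at the pericentral end and 90 (1.38%) at least 2-fold higher at the periportal end, on the scale of log2(CPM + 1). The median log2 ratio of all measured genes was 0.16. Pericentral genes thus made up 70.6% of the calls. With TMM scaling between the pools, which brings that median to -0.01, the ends held 2.0% and 1.73% of the genes measured and the share was 53.7%. That scaling lowered each log2 ratio by about 0.17, so genes near the 2-fold limit changed their call, as given below for named members of the gene lists. For none of the called genes did the cells of the ends separate without overlap.

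The leading pericentral genes, ranked by the fold among genes detected in at least 50% of cells, included enzymes, transporters, the factor Tbx3 and 3 globin genes. The steepest was Cyp2a5, a P450 that oxidises coumarin and nicotine, described below. Lhpp, a phosphatase of phosphohistidine, came next outside the globins, with a median of 53.01 CPM per cell at the pericentral end (0 to 416) and 0 CPM at the periportal end (0 to 22.2). In the summed counts Lhpp held 87.5 CPM (95% Poisson interval 83.1 to 92.1) against 2.42 CPM (1.70 to 3.33), a log2 ratio of 4.70. These intervals cover counting error only. Nxpe2 followed at 4.64, Pcp4l1 at 4.18 and the citrate and succinate transporter Slc13a3 at 3.89.

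Gulo, the last enzyme of vitamin C synthesis in mice, had a median of 972 CPM per pericentral cell (467 to 2411), 561 CPM in the middle and 98.4 CPM per periportal cell (11.3 to 597). Cells of the ends overlapped only between 467 and 597 CPM, with a pooled log2 ratio of 2.88 for Gulo. Tbx3, a T-box factor, was lower in level, with a median of 29.3 CPM per pericentral cell (0 to 235.6) and 0 CPM per periportal cell (0 to 34.3), and had a log2 ratio of 3.40. Serpina7, which carries thyroid hormone, had a log2 ratio of 2.80 overall but 0.95 in run 2, against 2.81 and 3.37 in runs 1 and 3.

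**Figure D1:**
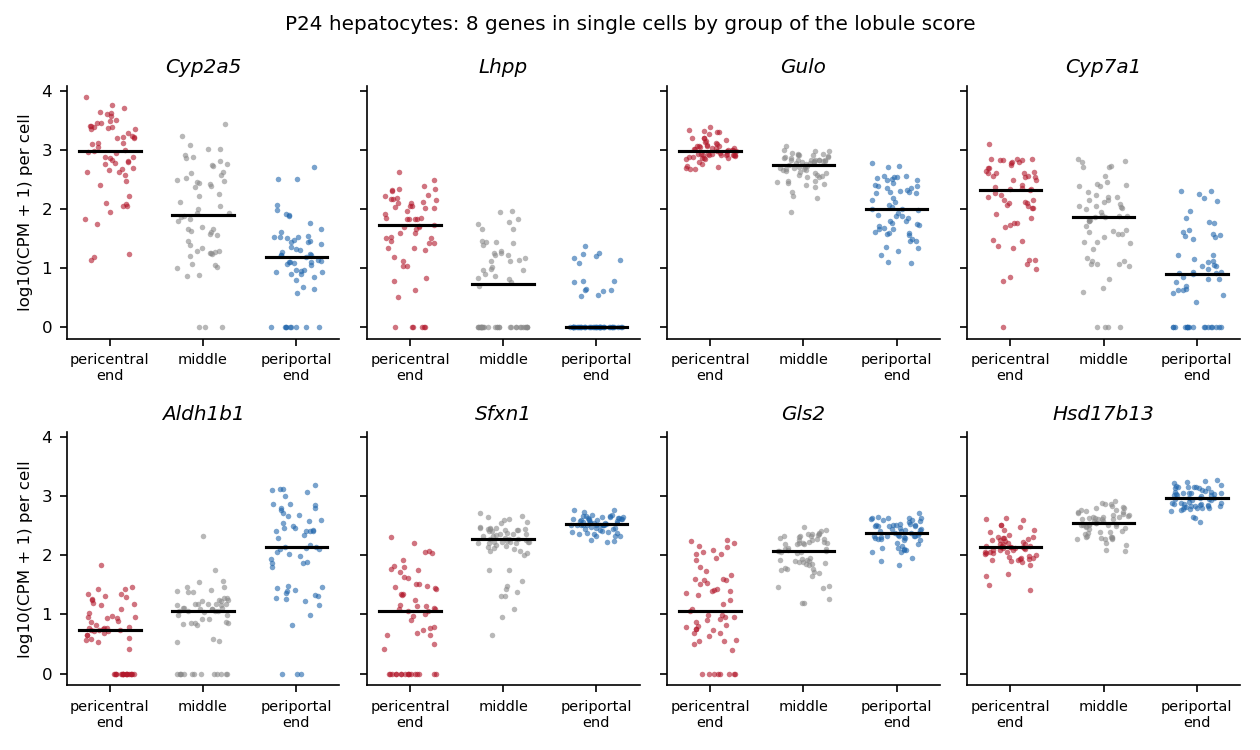
Level of 8 genes in each P24 cell as log10(CPM + 1), by group of the lobule score (pericentral end 59 cells, middle 60, periportal end 59); points are cells and bars are medians. Lhpp has a median of 0 CPM at the periportal end, and the medians of all 8 genes in the middle lie between those of the ends.

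Cyp2a5 and its neighbour Cyp2a4, a steroid hydroxylase, lay at opposite ends. Cyp2a5 had a median of 951 CPM per pericentral cell (12.9 to 7722), 78.6 CPM in the middle and 14.5 CPM per periportal cell (0 to 509), and the pooled levels of 1328 CPM (1311 to 1345) and 31.8 CPM (29.1 to 34.8) gave a log2 ratio of 5.34. Cyp2a4 stood at 10.98 CPM (9.45 to 12.7) in the pericentral pool and 69.1 CPM (64.95 to 73.3) in the periportal pool, a log2 ratio of -2.55. Its cells ranged from 0 to 84.8 CPM and from 0 to 1146 CPM, so the ends overlapped, and 1 cell supplied 34.8% of the periportal counts. Across the runs the ratio was between 4.94 and 5.63 for Cyp2a5 and between -2.63 and -1.5 for Cyp2a4.

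The 2 genes are shown by sequence because reads from one can be assigned to the other. On GRCm38, GENCODE places Cyp2a4 at chr7:26307169-26315088 and Cyp2a5 at chr7:26835305-26843548, both on the plus strand. Their longest coding transcripts shared 1708 of 1738 aligned bases (98.3%). How shared reads were counted is not given in the sources used here, so the level of each member is uncertain. The 250 bases before the RefSeq start sites (GRCm38.p6, chr7:26306942-26307191 and chr7:26835089-26835338, plus strand) are given 5′ to 3′, and capitals mark the 4 aligned bases that differ.
Cyp2a4: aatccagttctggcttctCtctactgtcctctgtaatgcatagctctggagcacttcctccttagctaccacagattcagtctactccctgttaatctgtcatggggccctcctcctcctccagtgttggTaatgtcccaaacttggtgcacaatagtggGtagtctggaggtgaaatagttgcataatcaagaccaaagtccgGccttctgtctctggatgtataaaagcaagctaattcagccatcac
Cyp2a5: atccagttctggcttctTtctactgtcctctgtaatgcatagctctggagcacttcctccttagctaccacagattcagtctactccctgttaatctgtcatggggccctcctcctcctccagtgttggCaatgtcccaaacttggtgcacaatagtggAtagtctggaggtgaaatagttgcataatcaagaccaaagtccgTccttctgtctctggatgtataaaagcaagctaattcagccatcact

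At the periportal end the steepest gene was Aldh1b1, a mitochondrial aldehyde dehydrogenase. Its median was 140 CPM per periportal cell (0 to 1539), 10.7 CPM in the middle and 4.51 CPM per pericentral cell (0 to 68.98), and the pooled ratio was -5.22. The middle cells thus lay close to the pericentral end for Aldh1b1. Sfxn1, a mitochondrial serine carrier, was graded otherwise, with 344 CPM per periportal cell (170 to 595), 185.3 CPM in the middle and 10.51 CPM per pericentral cell (0 to 205.3). On the scale of cell medians its middle cells lay nearer the periportal end, while the pooled levels of 351.5, 175.2 and 24.9 CPM put the middle nearer the pericentral end.

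Hsd17b13, a protein of lipid droplets, had medians of 926 CPM (369 to 1913), 355 CPM and 135.4 CPM (25.1 to 426) from the periportal to the pericentral end, a log2 ratio of -2.77, and the ends met only between 369 and 426 CPM. Complement C9 (-2.96), the immunoglobulin receptor Pigr (-3.04), the nicotinamide methyltransferase Nnmt (-3.26), the defensin Defb1 (-4.19) and the trefoil factor Tff3 (-3.46) were further members of the leading 15. Ctnnbip1, an inhibitor of the contact between beta-catenin and TCF factors, had a median of 24.2 CPM per periportal cell and 0 CPM per pericentral cell, with pooled levels of 36.4 CPM (33.4 to 39.5) and 3.32 CPM (2.51 to 4.32) and a log2 ratio of -3.11. Aspg, an asparaginase, and Rasgef1b were at -2.92 and -2.59. For Tff3, 1 cell supplied 17.9% of the periportal counts, and for the trypsin inhibitor Spink3 (-2.98) 20.6%.

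Of 33 measured genes listed as pericentral markers, 26 were 2-fold higher at the pericentral end and 1 at the periportal end, with a median of 1.43 beside 0.16 over all measured genes (21 and 1 with TMM scaling). The exception was Gas2, a protein of the cell skeleton, with 13.5 CPM at the pericentral and 71.3 CPM at the periportal end (log2 ratio -2.32, and -2.34 to -2.21 in the runs). Of 30 periportal markers, 18 were 2-fold higher at the periportal end, 0 at the pericentral end, and the median was -1.07. Many of these markers were chosen from knowledge of zonation, so their direction is no finding of its own. The same markers recur among the called members of the lists below, and the called shares of those lists rest in part on them. Examples are Cyp7a1 and Cyp27a1 of bile acid synthesis, Gstm2 and Gstm3, Arg1, Asl and Gls2, and Uroc1 and Ftcd.

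Genes of Wnt signalling, the pathway that acts around the central vein, leaned to the pericentral end. Of 13 measured members, 5 were 2-fold higher there and 0 at the other end, with a median of 0.83. The list thus had 38.5% of its members called, beside 4.68% of all measured genes. Ctnnbip1, the periportal inhibitor described above, is not on that list. All 5 are targets, feedback inhibitors or receptors: Tbx3, the Wnt-inactivating enzyme Notum (62.4 against 13.5 CPM, log2 ratio 2.13), the receptor-removing ligases Rnf43 (32.5 against 8.36 CPM, 1.84) and Znrf3 (35.9 against 14.4 CPM, 1.26), and the receptor Fzd8 (15.9 against 4.70 CPM, 1.57). Fzd8 and Znrf3 were under 2-fold in run 2, at 0.71 each.

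Measured members of the pathway that were not called included Apc, with a log2 ratio of 0.83, Lrp6 (0.47) and the factor Tcf7l2 (-0.19). Ctnnb1, which encodes beta-catenin, was below the filter at 6.94 and 7.19 CPM. Also below the filter were the target Axin2 (11.4 CPM, 9.84 to 13.1, against 1.24 CPM, 0.747 to 1.94) and the receptor Lgr5 (19.9 CPM, 17.8 to 22.1, against 0.392 CPM, 0.144 to 0.853). The ammonium transporter Rhbg had 36.7 CPM against 2.74 CPM, and 1 cell supplied 24.3% of its pericentral counts. Leaving out the 6 cells rich in Glul and Slc1a2 lowered Rhbg to 15.9 CPM, Axin2 to 9.21 CPM and Tbx3 from 43.3 to 38.6 CPM, and left Lgr5 at 19.8 CPM. Lgr5 counts were thus not concentrated in the cells richest in Glul.

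Among 44 measured P450 genes, 13 were 2-fold higher at the pericentral end and 2, Cyp2a4 and Cyp17a1, at the periportal end. The called share was 34.1%, beside 4.68% of all measured genes, and the median was 0.22. Cyp3a11, a broad drug oxidase, had medians of 2106 CPM per pericentral cell (575 to 4191) and 671 CPM per periportal cell (27.5 to 3137). Cyp2c29 had 1753 CPM (836 to 4089) and 888 CPM (71.8 to 1936), with a log2 ratio of 1.09, and 0.92 with TMM scaling, which ends the call. In both genes the ends overlapped over a wide range. The testosterone hydroxylase Cyp2d9 was steeper, at 718 against 120.7 CPM, and ran from 4.28 in run 1 to 1.85 in run 2. Cyp17a1, a steroid-synthesis enzyme, stood at 18.04 CPM in the pericentral and 97.7 CPM in the periportal pool. Cyp2a4 and Cyp17a1 are on a list of female-biased genes, as is Cyp2c69, which differed between the runs. Of 11 measured genes on that list, 4 were called periportal and 0 pericentral, and 3 were above 0. Its median was -0.24, with -0.69, 0.15 and -0.08 in runs 1, 2 and 3. Cyp2d9 is on a list of male-biased genes. That list was split: of 5 measured genes, 2 were called pericentral and 1 periportal. In it 3 genes were below 0, and the median was -0.25. Sex is not labelled, and its part in these ratios was not tested.

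The partners of these oxidases leaned to the same end. Of 14 measured xenobiotic receptors and partners, 13 were above 0, 2, Ahr and Por, were called pericentral and 0 periportal, and the median was 0.64. The called share was 14.3%, beside 4.68% of all measured genes. With TMM scaling 12 were above 0 and Por (0.88) was not called. The dioxin receptor Ahr had medians of 53.2 CPM per pericentral cell (0 to 187.5) and 13.8 CPM per periportal cell (0 to 123.4). Por, which passes electrons to P450 enzymes, had 798 CPM (210 to 2539) and 365 CPM (71.4 to 1013). The heme enzymes Cpox (log2 ratio 1.42) and Blvrb (1.5) were the 2 called members of 20 iron and heme genes (10.0%). Alas1, the first step of heme synthesis, was at 0.78. With TMM scaling Id1 of that list (-1.12) was called too, at the periportal end. Of 19 glutathione transferases, which conjugate oxidised compounds, Gstm2 (3.76), Gstm3 (3.70), Gstm6 (1.05) and Gsta3 (1.02) were called pericentral and 0 periportal. These made up 21.1% of that list. With TMM scaling Gstm6 (0.88) and Gsta3 (0.85) were no longer called. The Cyp2c, Cyp3a, Gstm and Cyp2d families hold near-identical members, so these values too are uncertain as to the member.

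Bile acid synthesis and transport had 8 of 24 measured genes called at the pericentral end and 0 at the periportal end. The called share was 33.3%, beside 4.68% of all measured genes. Of the 24, 23 were above 0, or 17 with TMM scaling, and the median was 0.33. Cyp7a1, the rate-limiting enzyme of bile acid synthesis, had a median of 204.9 CPM per pericentral cell (0 to 1260), 72.1 CPM in the middle and 6.88 CPM per periportal cell (0 to 197.9). Its pooled log2 ratio was 3.33, and 1 cell supplied 28.02% of the periportal counts. The alternative-route enzyme Cyp27a1 had medians of 359 CPM (31.5 to 790) and 124.5 CPM (3.82 to 406), with a ratio of 1.52. The uptake carrier Slco1b2 (1.5), the export pump Abcc2 (1.24) and the reductase Akr1c6 (1.35) were also called. Cyp8b1, which makes cholic acid, was at 0.24 and had its highest median, 87.98 CPM, in the middle.

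Of 17 measured urea cycle and ammonia genes, 4 were 2-fold higher at the periportal end and 1, Rhbg, at the pericentral end, where 1.38% and 3.30% of all measured genes were. Rhbg carries the limits given above, with 24.3% of its pericentral counts from 1 cell. Arg1, which releases urea, had medians of 3829 CPM per periportal cell (2021 to 7974) and 1710 CPM per pericentral cell (34.2 to 3419). Asl, the step before it, had medians of 940 and 440 CPM and pooled levels of 997 CPM (981 to 1013) and 448.5 CPM (438 to 459). Ass1 was just under 2-fold (log2 ratio -0.99, and -1.16 with TMM scaling), Otc was at -0.42, and Cps1, the entry enzyme of the cycle, was at -0.05 with -0.44, -0.27 and 0.34 in the runs. Within the cycle, the ratio thus moved from near 0 at its mitochondrial start to over 2-fold at its end in the cytosol. Gls2, the glutaminase that feeds ammonia to the cycle, was much steeper, with medians of 240 CPM (67.2 to 517) and 10.51 CPM (0 to 183.6).

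Of 36 measured genes of amino acid breakdown, 6 were called at the periportal end and 0 at the pericentral end. The called share was 16.7%, beside 4.68% of all measured genes, while the median was -0.04 beside 0.16. The 3 steps that follow Hal in histidine breakdown were all among the 6: Uroc1 (-1.18), Amdhd1 (-1.74) and Ftcd (-1.88). Amdhd1 had medians of 436 CPM per periportal cell (214.3 to 699) and 118.6 CPM per pericentral cell (35.8 to 361), and the runs gave -2.10 to -1.18. The others were Sdsl, a serine dehydratase relative (56.1 against 1.25 CPM), the phosphoethanolamine lyase Etnppl (190.6 against 12.7 CPM) and Gldc of glycine cleavage (-1.05). Among enzymes of tyrosine breakdown, Tat was just under 2-fold (-0.94) and became a periportal call with TMM scaling (-1.12). Hpd (0.20), Hgd (0.09) and Fah (0.15) did not differ 2-fold.

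Glucose metabolism had 2 of 24 genes called (8.33%, beside 4.68% of all measured genes), both at the periportal end. Both, Pck1 and Fbp1, are also on the list of periportal markers. Pck1, the control point of gluconeogenesis, had medians of 1992 CPM per periportal cell (155.6 to 4301) and 668 CPM per pericentral cell (22.5 to 1978), and Fbp1 had 1806 CPM (691 to 3683) and 869 CPM (317.4 to 1610). G6pc, which releases free glucose, was at -0.46. Genes of fatty acid oxidation and ketogenesis were above 0 in 25 of 26 cases, or in 19 with TMM scaling, with a median of 0.33. Of these, 4 (15.4%) were called pericentral: Acot1, Cyp4a14, Cyp4a10 and, at the limit, the ketone enzyme Bdh1 (log2 ratio 1.0, and 0.83 with TMM scaling). In fatty acid synthesis the called genes (10.5% of 19) were split, with the desaturase Scd1 pericentral (1.65) and the citrate lyase Acly periportal (-1.66). Of 23 cholesterol synthesis genes only the epoxidase Sqle was called, at the periportal end (-1.35). This share of 4.35% was near the 4.68% of all measured genes. With TMM scaling Idi1 was called there too (-1.05, from -0.88).

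All but 1 of the 39 respiratory chain genes were lower at the pericentral end, with a median of -0.33 beside 0.16 over all measured genes; none reached 2-fold, and the medians within the runs were -0.40, -0.19 and -0.36. The exception was Ndufs1, at 0.05; with TMM scaling all 39 were lower. Ribosomal protein genes had a median of 0.10, below the 0.16 of all measured genes; 44 of 46 were above 0, but 8 of 46 with TMM scaling. Plasma protein genes were below 0 in 53 of 67 cases with a median of -0.26, and 6 were called periportal, among them C9, Serpina1e (-2.22) and hemopexin (Hpx, -1.0), against 2 pericentral, Lect2 (2.39) and Serpina6 (1.14, and 0.97 with TMM scaling). The called share of plasma protein genes was 11.9%, beside 4.68% of all measured genes. The acute phase genes Saa1, Orm1, Lcn2 and Hpx were 4 periportal calls among 11 measured (36.4%). Saa1 cells reached 588 CPM at the pericentral and 1983 CPM at the periportal end.

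Immediate early genes, which can respond to cell isolation, had 3 of 9 members called at the periportal end, Gadd45g, Btg2 and Ier2, and 0 at the pericentral end. The called share was 33.3%, beside 4.68% of all measured genes. The summed level of the immediate early genes was 430 CPM at the pericentral end, 480 CPM in the middle and 599 CPM at the periportal end. Its part in the other differences was not tested.

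**Figure D2:**
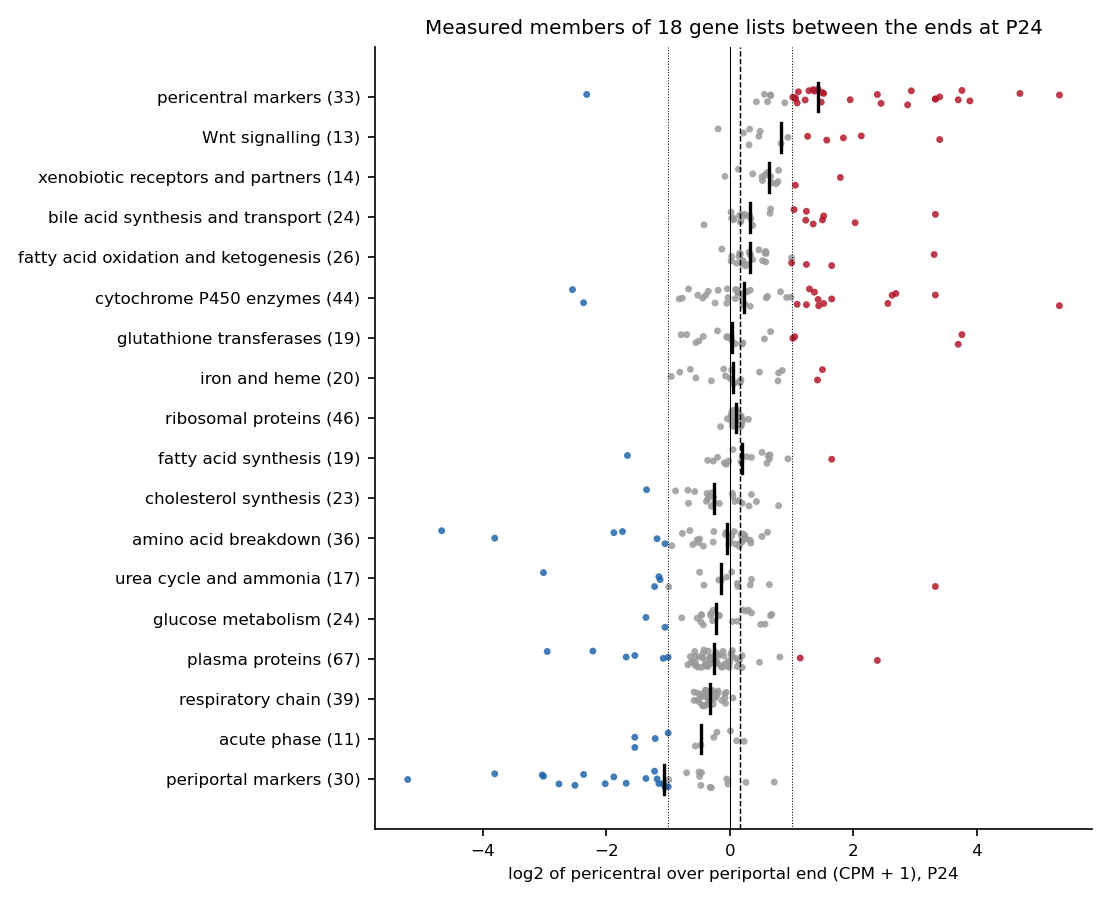
Log2 ratio of the pericentral to the periportal end at P24 for the measured members of 18 gene lists (number in parentheses); points are genes, coloured where 2-fold higher at the pericentral (red) or periportal (blue) end, black bars are list medians, and the dashed line is the median of all measured genes, 0.16. The respiratory chain genes form a tight group left of 0 with a median of -0.33, and the lone blue point among the pericentral markers is Gas2.

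Of 38 measured transcription factors 3 were called (7.89%, beside 4.68% of all measured genes). Tbx3 was pericentral, and Usf1 and the Notch target Hes1 (-1.19) were periportal. With TMM scaling Id1 was called periportal too (-1.12, from -0.95). Usf1, an E-box factor that is among the genes knocked out elsewhere in the series, had pooled levels of 127.2 CPM at the periportal end (cells from 15.9 to 315.3), 83.2 CPM in the middle and 24.4 CPM at the pericentral end (cells from 0 to 85.9). The ends overlapped between 15.9 and 85.9 CPM, the pooled log2 ratio was -2.33, and the runs gave -2.73, -1.94 and -2.52. The other factors knocked out in the series were near even, with Nr2f2 at 0.24, Xbp1 at -0.36 and Tef at 0.34. Hnf4a, a master factor of hepatocytes, was at 0.37.

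Few genes peaked between the ends: 9 (0.138% of those measured) were at least 1.5-fold higher in the middle than at both ends, and 9 (0.138%) at least 1.5-fold lower. Ccnd1, a cyclin that starts division, had 35.6 CPM in the middle against 21.8 and 17.4 CPM at the pericentral and periportal ends. Sec24d, a coat protein of secretory vesicles, had 71.7 CPM against 44.99 and 42.2 CPM, and the acyltransferase Zdhhc7 14.5 CPM against 8.61 and 8.10 CPM. Zdhhc7 and Sec24d were not higher in the middle within run 1 (log2 ratio to the higher end -0.25 and -0.04). Gm26584, the coactivator Ncoa6 and the Notch mediator Rbpj were the other named middle genes, at 16.9, 16.3 and 17.96 CPM in the middle. With every cell thinned to 50000 counts, 40 genes passed the upper rule in place of 9.

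The 3 globin genes among the leading 15, and Hbb-bt, which was below that detection limit, rested on single cells. Hbb-bs held 481 CPM in the pericentral pool and 14.1 CPM in the periportal pool, yet the cell medians were 9.24 and 7.35 CPM. The summed globin level was 20688 and 62727 CPM in 2 cells and at most 970 CPM in the others. Both cells lay at the pericentral end, 1 in run 2 and 1 in run 3. Without them the log2 ratio was -0.44 for Hba-a1 and -0.09 for Hba-a2, and 93.1% of the pericentral genes were still called.

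Cell cycle genes were called pericentral in 11 of 17 cases (64.7%, beside 4.68% of all measured genes), or 9 with TMM scaling. Their median was 1.27, but the medians within runs were 4.10, -0.85 and 0.56. Cells with more than 200 CPM of 6 cell cycle genes together numbered 19. They were 10 of 59 at the pericentral end (16.9%), 6 of 60 in the middle and 3 of 59 at the periportal end (5.08%). In run 1 they were 5 of 12 pericentral cells and 0 of 22 periportal cells, against 3 of 29 and 2 of 20 in run 2. All cells belong to 1 sample, so these shares describe only the cells at hand. Mki67, the proliferation marker, had ratios of 5.97, -1.04 and 0.72 in the 3 runs. With all 19 cells left out, 78.7% of the pericentral genes and 92.2% of the periportal genes were still called.

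**Figure D3:**
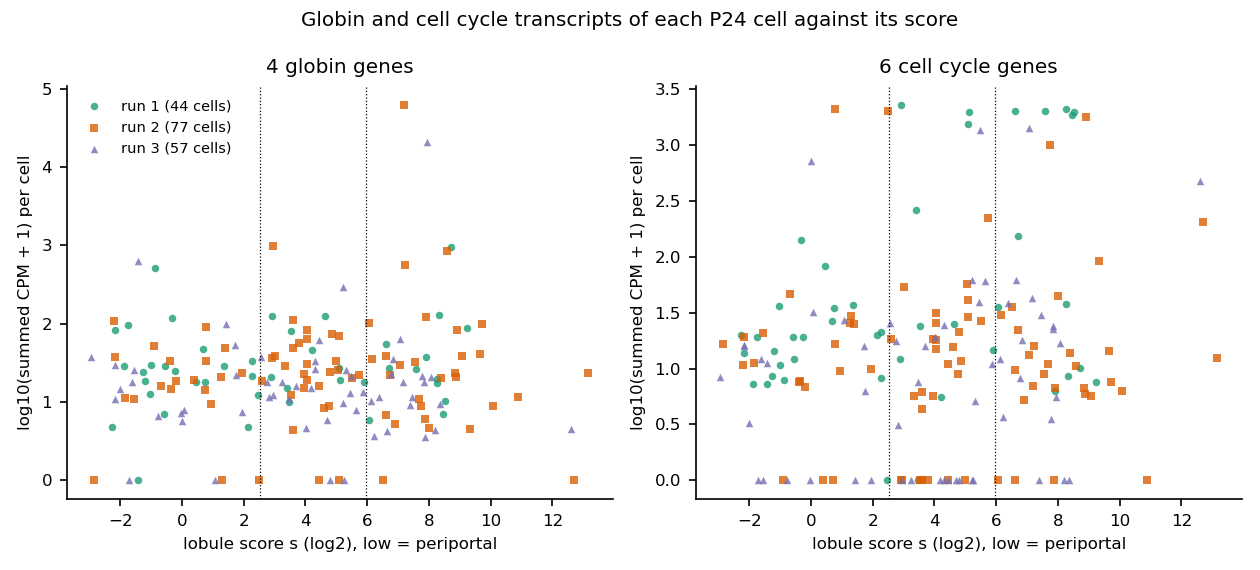
Summed level of 4 globin genes (left) and of 6 cell cycle genes (right) in each P24 cell as log10(CPM + 1) against the lobule score; symbols mark the 3 runs of label numbers and dotted lines the borders of the 3 groups. The 2 cells far above the others for globins lie at the pericentral end, and the cells high in cell cycle genes occur in all 3 groups.

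The folds were recomputed within the runs, each split by the borders of the whole set. Of all measured genes, 10.5% were called pericentral and 2.25% periportal in run 1, 3.53% and 1.80% in run 2, and 6.07% and 1.54% in run 3. Of the pericentral genes, 84.7%, 51.9% and 75% were at least 2-fold higher at that end in runs 1, 2 and 3, and 76 genes (35.2%) in every run. Of the 90 periportal genes, 80, 61 and 78 were called in the runs and 50 in every run. The sign was the same in all 3 runs for 87.04% of the pericentral and 93.3% of the periportal genes. The runs are parts of the cells that chose the genes, which favours the same sign and call within them. For all 3 runs together no share over all measured genes is given. These values therefore only describe the spread of the runs.

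The same score was applied to other ages, with 66 cells per end at P18, 45 at P30 and 19 at P60; the P60 values rest on the 58 cells (33.3% of those with that label) that could be matched to a column. At P18, 2.86% and 1.61% of the measured genes were called pericentral and periportal, at P30 6.62% and 1.59%, and at P60 11.1% and 1.25%. Of the pericentral genes, 46.3% were called at P18, 66.2% at P30 and 68.1% at P60. Of the 90 periportal genes, 63, 67 and 41 (70%, 74.4% and 45.6%) were called. Gulo had log2 ratios of 2.02, 4.54 and 5.31 at P18, P30 and P60, against 2.88 at P24. Cyp7a1 had 1.37, 4.65 and 4.83, against 3.33. At the other end Pigr had -3.33, -1.77 and -0.56 and Nnmt -4.55, -2.36 and -1.09, so both were flatter at P60 than at P24, and Pigr there held 594 and 877 CPM. Aldh1b1 had -4.87, -5.94 and -6.55. With 1 pool per end and age, differences between ages were not tested.

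**Figure D4:**
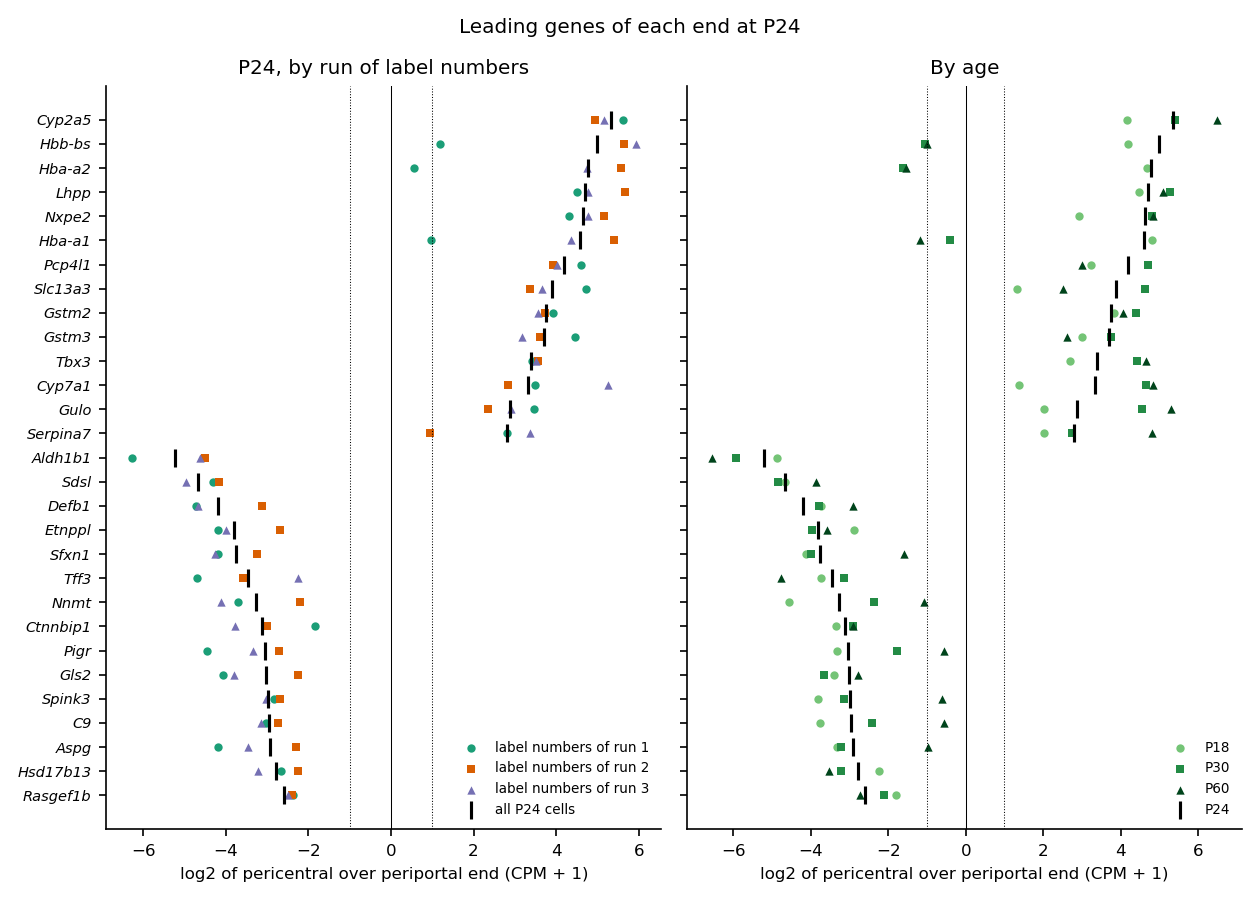
Log2 ratio of the pericentral to the periportal end for 14 of the leading pericentral and 15 leading periportal genes, within the 3 runs of label numbers at P24 (left) and at P18, P30 and P60 (right); the vertical tick is the value over all P24 cells. The globin genes Hbb-bs, Hba-a2 and Hba-a1 lie far from their P24 value in run 1, at P30 and at P60, and all other named genes keep their sign.

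The sorted P60 libraries gave a test that the P24 score did not use. They held 13144208 to 22729462 counts, and edgeR's quasi-likelihood test with Benjamini-Hochberg adjustment over 10984 genes called 1653 (15%) higher and 1528 (13.9%) lower in CV than in PV. Of the P24 pericentral genes that could be tested, 76.4% were higher in CV and 4 (2.05%) lower; of 85 periportal genes, 77 were lower in CV (90.6%) and 1 of the 85 had a change above 0. The 4 that went the other way were Cdk1, Prim1, Ces1f and Aox3, of which Cdk1 and Prim1 serve DNA replication and division. Nt5e and Cdh1 encode the sorted proteins CD73 and CD324 and are no finding there. In sorted bulk RNA, fewer cells of a type and less RNA per cell cannot be told apart.

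CV libraries also held RNA of other cells. In CV, 7 of 7 tested macrophage markers, 6 of 7 endothelial and 4 of 4 stellate markers were higher than in PV. Over all genes tested the share was 15.05%. Dcn, a stellate gene, was at 56.3 and 68.9 CPM in the CV libraries and at 0 and 0.0467 CPM in the PV libraries, and Clec4f of Kupffer cells at 3.89 and 2.60 CPM against 0 and 0. Both cholangiocyte markers tested were lower in CV. The part of these cells in the calls was not tested. Albumin fell by 1.79 on the log2 scale in CV, from 90900 and 91760 CPM in PV to 27110 and 25620 CPM (Alb, edgeR adjusted p = 1.53e-14), while the ends at P24 were at -0.17.

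The steepest P24 genes were also graded among the sorted cells. Cyp2a5 was at 91.7 and 11.02 CPM in the PV libraries, 140.4 and 92.1 CPM in ML and 2846 and 2856 CPM in CV, a log2 change of 5.83 (SE 0.66, edgeR adjusted p = 1.34e-05). Lhpp rose by 6.90 (SE 0.30), from 1.47 and 0.234 CPM to 79.2 and 90.9 CPM (edgeR adjusted p = 7.66e-10). No CV library overlapped a PV library for either gene. With 2 libraries per group, unchanged genes can separate in this way too, and the share over all genes tested is not given here. Aldh1b1 was at 34.2 and 33.5 CPM in PV, 17.9 and 17.6 CPM in ML and 0.694 and 0.760 CPM in CV, and fell by 5.52 on the log2 scale (SE 0.17, edgeR adjusted p = 3.96e-11). Usf1 was at 37.01 and 37.04 CPM in PV, 25.4 and 31.1 CPM in ML and 7.15 and 6.90 CPM in CV, and fell by 2.40 (SE 0.12, edgeR adjusted p = 4.23e-09). For Cyp2a4 the levels were 6.79 and 3.18 CPM in PV against 1.81 and 0.127 CPM in CV (log2 change -2.36, edgeR adjusted p = 0.0137), the same direction as at P24 and with the same doubt about shared reads. Cps1, even between the ends at P24, fell by 0.64 in CV (edgeR adjusted p = 4.43e-08).

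The ML libraries were set against the mean of CV and PV on the log scale. Of all genes tested, 3.30% were higher in ML and 2.23% lower. Of the 85 periportal genes of P24, 59 were higher in ML than that mean, and of the pericentral genes 4 (2.05%) were higher and 52 (26.7%) lower. All 9 genes that were highest in the middle group at P24 were tested, and 0 were higher in ML and 0 lower. Only 2 of the 9 genes lowest there were tested, and 0 were lower in ML. Sfxn1, at 165.7 and 176.6 CPM in PV, 145.2 and 165.8 CPM in ML and 13.7 and 9.31 CPM in CV, was above the mean of the others by 1.81 (edgeR adjusted p = 3.29e-08). Cyp7a1, at 57.4 and 44.98 CPM in PV, 105.8 and 104.7 CPM in ML and 365.5 and 370.2 CPM in CV, was below it (log2 difference -0.38, edgeR adjusted p = 0.01). For both genes the ML libraries lay nearer to PV than to CV.

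Of all genes tested, 15.05% were higher and 13.91% lower in CV, and of the tested genes measured at P24, 17.04% and 19.52%. Among the groups, the respiratory chain was lower in CV for 35 of 39 genes (89.7%), and 1 gene had a change above 0, with a median of -0.32 against 0.02 over all genes tested. Plasma protein genes were lower in CV for 52 of 69. Bile acid genes, all but 1 above 0 at P24, divided in the sorted cells into 13 higher and 9 lower of 25. Wnt genes were higher for 12 and lower for 3 of 30. The genes that were higher included Axin2 (0.0771 and 0 CPM in PV, 3.89 and 4.75 CPM in CV) and Lgr5 (0.154 and 0.0467 CPM in PV, 11.1 and 12.2 CPM in CV), both with edgeR adjusted p-values of 1.25e-05 or less.

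**Figure D5:**
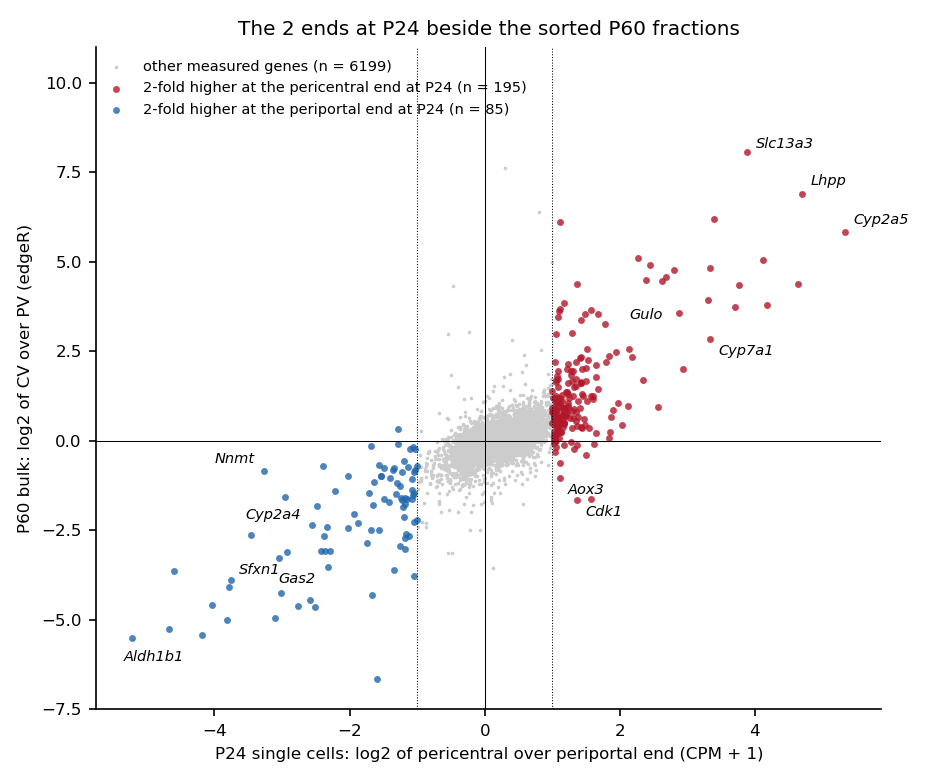
Log2 ratio of the pericentral to the periportal end at P24 (horizontal) against the log2 change of CV over PV in the sorted P60 libraries (vertical) for each gene measured in both; red and blue points are the genes called at P24, grey points all others. Red points lie mostly above 0 and blue points mostly below, with Cdk1 and Aox3 among the red points below 0.

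Promoter windows of 300 bases from RefSeq (GRCm38.p6, 250 before to 50 after the start) were searched on both strands for CTTTGAT, the core letters bound by TCF/LEF factors of the Wnt pathway, and for CAAAGTCCA, a core of HNF4A. The motifs share the letters CAAAG. Windows were found for 74.1% of the pericentral and 66.7% of the periportal genes. The TCF/LEF letters occurred in 6 pericentral windows (2.96%) and 1 of 78 periportal windows (1.28%), beside 3.73% of all 32851 windows and 2.39% of the windows of measured genes. The HNF4A letters occurred in 4 pericentral windows (1.97%) and 0 periportal windows, beside 0.475% of all windows.

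Lect2 and Cyp2c29, pericentral genes with the TCF/LEF letters, are shown because both were graded at P24 and in the sorted cells. Lect2 encodes a secreted chemotactic factor and its window lies at chr13:56548539-56548788 (minus strand), and that of Cyp2c29 lies at chr19:39286835-39287084 (plus strand). The 250 bases before each start site are given 5′ to 3′, with the matched letters in capitals, on the reverse strand as ATCAAAG.
Lect2: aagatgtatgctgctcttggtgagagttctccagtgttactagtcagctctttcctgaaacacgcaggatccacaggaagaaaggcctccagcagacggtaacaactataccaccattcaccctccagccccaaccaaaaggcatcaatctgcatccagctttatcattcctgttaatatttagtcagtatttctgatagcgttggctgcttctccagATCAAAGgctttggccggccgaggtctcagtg
Cyp2c29: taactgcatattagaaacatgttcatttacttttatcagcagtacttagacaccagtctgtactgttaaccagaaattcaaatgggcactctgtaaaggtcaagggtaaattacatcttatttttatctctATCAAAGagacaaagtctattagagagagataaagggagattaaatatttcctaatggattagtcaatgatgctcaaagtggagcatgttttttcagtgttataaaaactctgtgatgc
Lect2 had a median of 791 CPM per pericentral cell (303.2 to 2269) and 101.4 CPM per periportal cell (13.6 to 719), a log2 ratio of 2.39, and rose by 4.50 in CV (SE 0.21, edgeR adjusted p = 2.16e-09). Hal, a gene of the periportal side of the score, also carried the letters CTTTGAT in its window. A match in this window is a description of its letters only.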

How the data were processed

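The deposited mSTRT-seq table held whole-number counts per gene and cell, and the deposited bulk tables held counts per gene, both made by the authors before any normalisation. The submitters' processing notes name featureCounts 1.5.3 and 2.0.0, HTSeq 0.6.0, Trimmomatic 0.39 for trimming, UMI-tools 0.5.0 for barcodes, the aligners HISAT2 2.1.0 and TopHat2 2.1.0 and SAMtools 1.3.1, with the builds GRCm38 and mm10, and do not assign them to a data type. Whether a count is a read or a molecule is not given in the sources used here. Of 2169 columns of the mSTRT-seq table, 570 matched the labels of the samples used here and 1599 were not used.

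CPM values left out the 92 spike-in entries. The P24 cells were ranked by the score and cut into groups of 59, 60 and 59 cells, counts were summed per group, and folds were taken as log2(CPM + 1). Genes needed 10 CPM over all cells and a count in 10% of cells. No doublet caller was run. Each end was 1 pool, so no test was made. The intervals are exact Poisson intervals at 95% and cover counting error only. The bulk counts were tested with edgeR 4.0.16 (R 4.3.3; TMM, filterByExpr, quasi-likelihood F-test, all 3 groups in 1 model, Benjamini-Hochberg threshold 0.05), with DESeq2 1.42.0 as an alternative. The fold and count scripts were tested on simulated data. Python 3.11.15 was used for the rest.

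The members and gene lists were chosen with earlier results of these data known. The rule for named genes takes the 15 steepest genes of each end and the 6 of the middle among genes detected in at least 50% of cells, list members that define a pathway or lie at its extremes, the score genes, the sorted markers and the knocked-out factors; 1 of the 15 pericentral genes is not reported here. Limits for globin, cell cycle and Glul cells and the runs of label numbers were chosen after seeing the data. Alternatives covered the scaling, filters, pseudocount, score weights, size of the ends, depth, runs and single libraries.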

Additional observations from a re-analysis of the deposited data

Results flagged for a closer look

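Several genes called at one end at P24 were at least 2-fold higher at the other end at another age; none of these differences was tested, because each end is 1 pool per age. At P18 the cell cycle genes 2810417H13Rik (log2 ratio -1.52 at P18 and 1.73 at P24), Ccna2 (-1.21 and 1.27), Ccnb1 (-2.35 and 1.08), Cdc20 (-2.04 and 1.47), Cdca3 (-1.10 and 1.12), Cdk1 (-1.10 and 1.36), Cenpf (-1.38 and 1.27), Hmmr (-1.35 and 1.09), Plk4 (-1.31 and 1.97) and Ube2c (-1.13 and 1.04) were higher at the periportal end. At P24 these genes rested on few cells, and within run 2 each was below 0, from -2.19 (Ube2c) to -0.24 (Cdca3). With TMM scaling Ccnb1 was under 2-fold at P24 (0.92).

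Of the globin genes, Hba-a2 had -1.63 at P30 and -1.53 at P60, Hbb-bs -1.05 and Hbb-bt -1.03 at P30, and Hba-a1 -1.17 at P60, all against values above 0 at P24. Hbb-bt had 0.49 at P60, the sign it had at P24. The interferon-induced gene Isg15, periportal at P24 (-1.57), had 2.61 at P18 and 1.06 at P60, and 1 cell supplied 46.9% of its periportal counts at P24.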

How the results depend on the processing

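Counts of called genes are given here as percent of the 6541 genes measured at P24 or of the 10984 genes tested in the bulk libraries, also where another number was measured (16902 without a filter and 2507 with the stricter filter). The pericentral share of 3.30% depended on the settings: it was 2.0% with TMM scaling, 5.53% with ends of 25% and 1.33% with ends of 50% of the cells, 9.60% without a filter, 0.978% with a filter of 50 CPM and 50% of cells, 1.51% with a pseudocount of 10 CPM, and 10.5% and 6.07% within runs 1 and 3. The periportal share of 1.38% was 0.856% with ends of 50%, 3.15% without a filter, 0.719% with the stricter filter and 2.25% within run 1. The 0.138% of genes highest in the middle became 3.07% without a filter, 0.0153% with the stricter filter, 0.0153% with a pseudocount of 10 CPM, 0.612% after thinning, and 1.65%, 1.05% and 0.657% within the runs. The 0.138% lowest in the middle became 1.82%, 0%, 0.0306% and 0.428% under those same 4 settings, 0.0612% with equal weights in the score, 0.0459% with cells of at least 100000 counts, and 1.74%, 1.45% and 0.887% within the runs. Of the genes measured under each setting, the pericentral, periportal, middle-high and middle-low shares were 3.72%, 1.22%, 1.19% and 0.704% without a filter and 2.55%, 1.88%, 0.0399% and 0% with the stricter filter. The filters and pseudocount change by construction which genes can pass; for the other settings the cause was not tested. The runs were chosen after seeing the data, as were the sets without certain cells. Without the 2 haemoglobin cells Hba-a1 (-0.44) and Hba-a2 (-0.09) changed sign, and within run 1 Sec24d (-0.04) and Zdhhc7 (-0.25) did. For the 35 named genes 655 of 659 alternative values kept their sign. In the bulk libraries, leaving out each library in turn gave 10.4 to 15.1% of genes higher and 10.5 to 13.9% lower in CV, and 2.63 to 5.97% for ML in place of 5.53%, with 3.17% without ML replicate 1 and 2.63% without ML replicate 2. The lone library left in a group is then assumed to vary like the others. DESeq2 gave 11% higher, 11.5% lower and 4.85% for ML. With the replicate number as a block (replicate block) the shares were 14.7%, 13.7% and 5.35%; deviations of same-numbered libraries had correlations of 0.07 to 0.12, so the numbers were not taken to pair the libraries. Genes of low count, such as Axin2, Lgr5 and Ctnnb1, are limited by depth.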
